A study of Mus musculus with 12 samples.

Results

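The laminin chains, the integrin subunits and the proteins that tie laminin to other matrix or to the cell were followed in basal and luminal cells of the mouse mammary gland. Genes were chosen by symbol alone: the laminin alpha, beta and gamma chains, the integrin alpha and beta subunits, and Nid1, Nid2, Hspg2, Agrn and Dag1. This gave 42 genes of 27179 in the table, namely 5 laminin alpha, 3 beta and 3 gamma chains, 18 integrin alpha and 8 beta subunits, and 5 linkers. The expression filter was passed by 39 of them, among 14903 genes in all. The 3 that did not pass were Itgad, Itgae and Itgax, alpha subunits of leukocyte integrins.

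All mice were female. Controls were Foxp1(fl/fl), mice whose gene for the forkhead transcription factor Foxp1 is flanked by loxP sites. The other mice were MMTV-cre/Foxp1(fl/fl), in which the mouse mammary tumour virus promoter drives the Cre recombinase. The groups were basal control, basal knockout-labelled, luminal control and luminal knockout-labelled, with 3 libraries each. Both genotypes carry the floxed allele, and Cre is named in the strain of the knockout-labelled mice alone, so effects of Cre and of the deletion cannot be told apart. Ages, sorting gates and any pooling of mice are not stated in the labels. Basal and luminal cells are often separated with antibodies to integrin subunits, and whether Itgb1, Itga6 or Itgb3 protein was used to gate these cells is not known, which limits what their lineage differences show.

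Laminins are trimers of an alpha, a beta and a gamma chain that assemble into the sheet of the basement membrane. Integrins are pairs of an alpha and a beta subunit that span the cell membrane and bind laminin, collagen or other matrix outside and the cytoskeleton inside. In the mammary gland basal myoepithelial cells lie on the basement membrane, while most luminal cells face the lumen. Laminin-332, to which Lama3 and Lamb3 contribute, is the laminin of epithelial anchorage and a ligand of the integrins alpha3 beta1 and alpha6 beta4. Laminin-511 (Lama5, Lamb1, Lamc1) and laminin-111 (Lama1, Lamb1, Lamc1) share their beta and gamma chains.

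Library totals ran from 9769361 to 15449513 counts, and the 42 genes took 0.907% to 1.16% of the counts of basal libraries and 0.32% to 0.721% of luminal ones. The cell labels were checked against markers: all 8 basal markers were lower and all 8 luminal markers higher in luminal than in basal controls. The salivary markers Bpifa2, Smr3a and Prol1, all 3 called higher there too, summed to 725 to 2886 CPM in basal controls. Their sums were 7994 to 84880 CPM in luminal controls and 16820 to 67030 CPM in luminal knockout-labelled libraries. Between luminal genotypes Smr3a fell (log2 fold -9.47) and Prol1 rose (3.61). The part of salivary cells in the luminal values was not tested. Foxp1, the targeted gene, stood at 160 to 221 CPM in basal controls and 193 to 284 CPM in basal knockout-labelled libraries. In luminal cells it stood at 62.0 to 82.3 and 150 to 161 CPM (log2 fold 1.07, SE 0.19, adjusted p = 0.0161). This count takes in exons outside the deleted part and goes against the label, so the libraries are called knockout-labelled and each genotype direction is given as labelled. Of the 42 genes 9 were highest in replicate 3 of all 4 groups (Itga2, Itga3, Itga5, Itga6, Itgam, Itgav, Itgax, Itgb1 and Itgb6), beside 0 for replicate 1 and 1 for replicate 2. Over all tested genes these shares were 11.3% for replicate 3, 1.58% for replicate 1 and 8.36% for replicate 2. In turn 2 of the 42 (4.76%) were lowest in replicate 3 of all groups (Itgb8 and Lama4), and 7 (16.7%) in replicate 2. Shares of all tested genes that were lowest were 9.97% for replicate 3 and 8.31% for replicate 2. Basal control replicate 3 stood apart from its fellows: Acta2, the smooth muscle actin of myoepithelium, was at 1242 CPM beside 4845 and 5180 CPM, and Myh11, Mylk, Cnn1 and Oxtr were also lowest there. The basal keratins Krt5 and Krt14 and the factor Trp63 were highest in that library, so the 8 basal markers summed to 16900 to 17640 CPM in all basal controls.

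**Figure D1:**
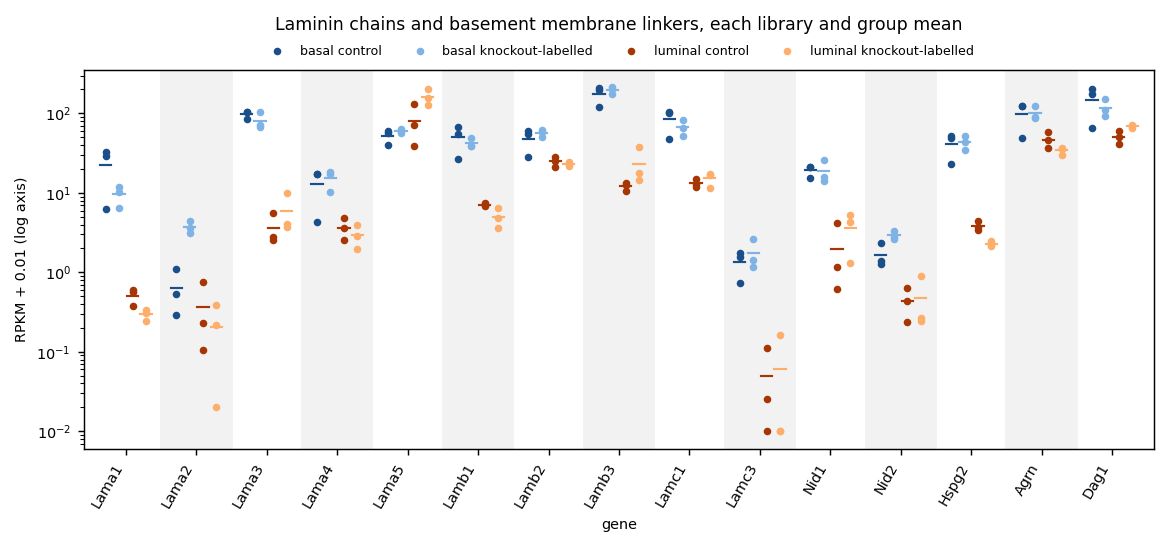
Levels of laminin chains and the 5 linkers, as RPKM + 0.01 on a log axis. Points are libraries, 3 in each of 4 groups, and short lines are group means. Lama5 is the chain whose luminal mean lies above its basal mean, while Lama3, Lamb3, Lama1 and Hspg2 lie well below.

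Laminin chain and linker transcripts were mostly more abundant in basal than in luminal controls, and Lama5 was the one chain whose mean was higher in luminal cells. Of the 39 tested genes 25 were lower and 0 were higher in luminal than in basal controls, where 33.2% of all tested genes were called, 16.8% lower and 16.3% higher. The lower genes were 9 of 11 laminin chains, all 5 linkers, 8 of 15 integrin alpha and 3 of 8 integrin beta subunits. The median log2 fold of the 39 genes was -1.29, beside 0.04 over all genes. In these bulk libraries fewer cells of a type and less RNA per cell cannot be told apart. A gene was called at an adjusted p under 0.05, over all genes tested, in edgeR's quasi-likelihood test, and every log2 fold is a fitted difference with its standard error (SE). Levels are RPKM, counts scaled by library size and by gene length, so that genes of different length can be compared.

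Lama3 and Lamb3, chains of laminin-332, were the most basal of the abundant chains described. Lama3, its alpha chain, was at 103, 85.4 and 103 RPKM in basal controls and at 2.76, 2.53 and 5.64 RPKM in luminal controls. Its log2 fold was -4.74 (SE 0.47, adjusted p = 2.45e-05). Lamb3, its beta chain, was at 210, 197 and 122 RPKM in basal and 12.4, 10.7 and 13.1 RPKM in luminal controls (log2 fold -3.87, SE 0.37). Neither gene's groups overlapped. Luminal controls kept more Lamb3 than Lama3 transcript in each library.

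The chains of laminin-111 and laminin-511 parted by their alpha chains. Lama1 was at 29.5, 32.4 and 6.25 RPKM in basal controls and at 0.551, 0.583 and 0.37 RPKM in luminal controls. It had the largest fall of the 39 genes (log2 fold -5.50, SE 0.57, adjusted p = 3.51e-05), with basal replicate 3 far under its fellow controls. Lama5 was at 59.7, 56.6 and 40.3 RPKM in basal and 71.1, 39.3 and 132 RPKM in luminal controls. These groups overlapped, and the log2 fold of 0.63 (SE 0.37, adjusted p = 0.213) was not called. Without basal control replicate 3 or luminal control replicate 2, 1 gene was called higher in luminal controls, Itgb6 in the one case and Lama5 in the other.

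Lamb1 and Lamc1, the chains shared by laminin-111 and laminin-511, were both lower in luminal cells. Lamb1 was at 68.2, 54.7 and 26.7 RPKM in basal and 6.93, 7.55 and 6.8 RPKM in luminal controls (log2 fold -2.81, SE 0.32). Lamc1 was at 104, 100 and 47.7 RPKM in basal and 12, 12.8 and 15.1 RPKM in luminal controls (log2 fold -2.66, SE 0.31). In luminal controls Lama5 therefore stood well above both chains it pairs with in laminin-511. Lamb2, which takes the place of Lamb1 in other trimers, was at 28.4, 25.2 and 20.9 RPKM there, above Lamb1 in every luminal library (log2 fold against basal -0.95, SE 0.25).

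The minor chains were lower or not called. Lama4, a chain of vessel and stromal basement membrane, was lower in luminal cells (log2 fold -1.81, SE 0.48). Lamc3 fell from 1.75, 1.54 and 0.732 RPKM in basal to 0, 0.0156 and 0.102 RPKM in luminal controls (log2 fold -5.07, SE 1.11), on 7 luminal counts in all. Lama2, the laminin chain of muscle and nerve, was at or under 1.1 RPKM in all control libraries and was not called (log2 fold -0.85, SE 0.82).

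All 5 linkers were lower in luminal controls. Hspg2, which encodes perlecan, the large heparan sulphate proteoglycan of basement membranes, was at 48.6, 52.5 and 23 RPKM in basal and 3.42, 4.41 and 3.71 RPKM in luminal controls (log2 fold -3.43, SE 0.31). Nid1, nidogen, which joins laminin to collagen IV, was at 20.9, 21.3 and 15.4 RPKM in basal and 0.604, 1.16 and 4.16 RPKM in luminal controls (log2 fold -3.28, SE 0.67). Its paralogue Nid2 was at 1.25, 2.34 and 1.36 RPKM in basal and 0.632, 0.227 and 0.432 RPKM in luminal controls (log2 fold -1.94, SE 0.53). The groups of these 3 genes did not overlap. Nid1 was the higher nidogen transcript in every basal control, and the lower by a little in luminal control replicate 1.

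The 2 linkers that bridge laminin and the cell surface differed less. Dag1, dystroglycan, a laminin receptor outside the integrin family, was at 174, 205 and 65.2 RPKM in basal and 50.8, 59.5 and 41.3 RPKM in luminal controls (log2 fold -1.55, SE 0.36). Agrn, agrin, a heparan sulphate proteoglycan that binds laminin and dystroglycan, was at 123, 123 and 49.4 RPKM in basal and 45.8, 58.4 and 36.6 RPKM in luminal controls (adjusted p = 0.0256, log2 fold -1.07, SE 0.32). The Agrn groups overlapped through basal control replicate 3, whose level lay below that of luminal control replicate 2.

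**Figure D2:**
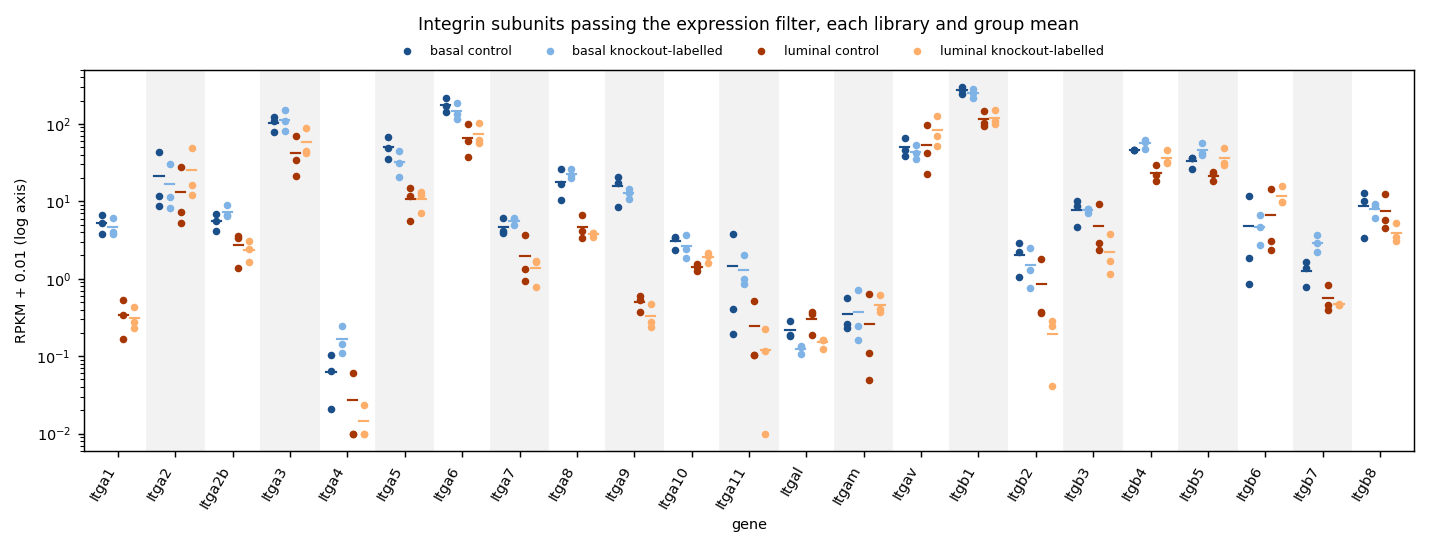
Levels of the 23 integrin subunits that passed the expression filter, as RPKM + 0.01 on a log axis. Points are libraries, 3 in each of 4 groups, and short lines are group means; points at 0.01 have 0 counts. Itgb1, Itga6 and Itga3 are the highest in basal libraries, and Itgav reaches similar levels in both cell types.

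Among integrins, Itgb1 and Itga6 had the highest mean levels in both cell types of controls, and the subunits of the laminin receptors were lower in luminal cells. Itgb1, the common beta subunit, was at 278, 243 and 300 RPKM in basal and 103, 94.8 and 149 RPKM in luminal controls (adjusted p = 0.00225, log2 fold -1.24, SE 0.24). Itga6, whose protein pairs with beta1 or beta4, was at 168, 144 and 214 RPKM in basal and 59.3, 36.9 and 99.9 RPKM in luminal controls (log2 fold -1.43, SE 0.36). Itga3 was at 110, 78 and 122 RPKM in basal and 34.2, 21.4 and 70.6 RPKM in luminal controls (adjusted p = 0.0398, log2 fold -1.29, SE 0.44). Itgb4, the hemidesmosome subunit, was at 45.7, 45.6 and 46.3 RPKM in basal and 22.2, 18.1 and 29 RPKM in luminal controls (log2 fold -0.99, SE 0.22). The groups of these 4 subunits did not overlap, and their folds were smaller than those of Lama3 and Lamb3.

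The steepest integrin differences were in subunits of lower level. Itga9, a receptor subunit for tenascin and other ligands, was at 20.9, 17.4 and 8.43 RPKM in basal and 0.515, 0.365 and 0.596 RPKM in luminal controls (adjusted p = 7.21e-06, log2 fold -4.98, SE 0.39). Itga1, a collagen receptor subunit, was at 6.57, 5.31 and 3.74 RPKM in basal and 0.328, 0.155 and 0.521 RPKM in luminal controls (log2 fold -3.96, SE 0.43). Itga5, of the fibronectin receptor, and Itga8, of a nephronectin receptor, had log2 folds of -2.25 (SE 0.41) and -1.93 (SE 0.33). Itga10, Itga2b and Itgb7 were called lower too, at -1.13, -1.01 and -1.18. Itga2b is the platelet alphaIIb subunit. Of 5 platelet markers 2 were tested: Gp1ba was lower in luminal controls too (log2 fold -1.84, SE 0.57, adjusted p = 0.0276), and Gp1bb was at -1.13 (adjusted p = 0.0831). Their list summed to 8.4 to 16.4 CPM in basal and 1.57 to 108 CPM in luminal controls, the highest value being Ppbp at 105 CPM in 1 luminal library, and Pf4 was at 0 to 0.402 CPM. The part of platelets in the Itga2b value was not tested.

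Itgav, Itgb3, Itgb5, Itgb6 and Itgb8 were not called between control cell types by edgeR over all libraries without the replicate block. Itgav was at 46.2, 38.2 and 66.5 RPKM in basal and 41.6, 22.9 and 97.5 RPKM in luminal controls (adjusted p = 0.894, log2 fold 0.10, SE 0.48). Of its beta partners, Itgb3, Itgb6 and Itgb8 had log2 folds of -0.71, 0.45 and -0.22, none called. The value of Itgb3 rested on luminal control replicate 3, at 9.2 RPKM beside 2.86 and 2.32 RPKM: without it the log2 fold was -1.62 (adjusted p = 0.0238), and without the 4 libraries numbered 3 it was -1.88 (adjusted p = 0.000409). Itgb5 was at -0.62 (SE 0.23, adjusted p = 0.0583). Among the alternatives without the block, it was called lower by DESeq2 (-0.65, adjusted p = 0.0334) and by edgeR on the libraries of these groups alone (-0.65, adjusted p = 0.0443). Further edgeR calls of Itgb5 came with DESeq2-type size factors (adjusted p = 0.0453), without basal control replicate 3 (0.02975) and without luminal knockout-labelled replicate 2 (0.0386). Itga2, a collagen receptor subunit, had a log2 fold of -0.68 (SE 0.81). Replicate numbers were taken to pair luminal with basal control libraries. With the number as a block, fitted over all 12 libraries, 29 genes were lower in luminal controls, against 21.8% of all genes lower and 43.8% called. The 4 gained were Itga7 (adjusted p = 0.0131), Itgb5 (0.00684), Itgb2 (0.0222) and Itga2 (0.0145). Without luminal control replicate 3 and without the block, Itga7 (log2 fold -2.10, adjusted p = 0.00219) and Itgb2 (-2.53, adjusted p = 0.0255) were lower as well. Over all libraries and without the block, Itga7 was also called lower by DESeq2 (adjusted p = 0.0256), by limma-voom (0.0177) and by edgeR scaled by library size only (0.0482). The log2 fold of Itga2 was 0.39 without basal control replicate 3 and -1.83 without luminal control replicate 3, neither called.

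Subunits of leukocyte integrins were near the floor. Itgal and Itgam stayed at or under 0.696 RPKM in all 12 libraries, Itgb2 at or under 2.87 RPKM and Itgb7 at or under 3.62 RPKM. Itga4 had 5 counts in luminal controls together, and Itga11, a collagen receptor subunit of fibroblasts, reached 3.72 RPKM in basal control replicate 3 and no more than 0.399 RPKM in the other basal controls. Without the block edgeR called none of Itgal, Itgam, Itgb2, Itga4 and Itga11 between control cell types over all libraries. Itga11 was called by DESeq2 (adjusted p = 0.047), and its edgeR log2 fold of -2.63 became -0.32 without basal control replicate 3. Itga4 was called without luminal control replicate 3 (adjusted p = 0.0379), the library that held all 5 of its luminal control counts. That call therefore sets basal counts against a luminal control group at 0. Leukocyte and macrophage markers together summed to between 13.5 and 31.3 CPM in all libraries.

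**Figure D3:**
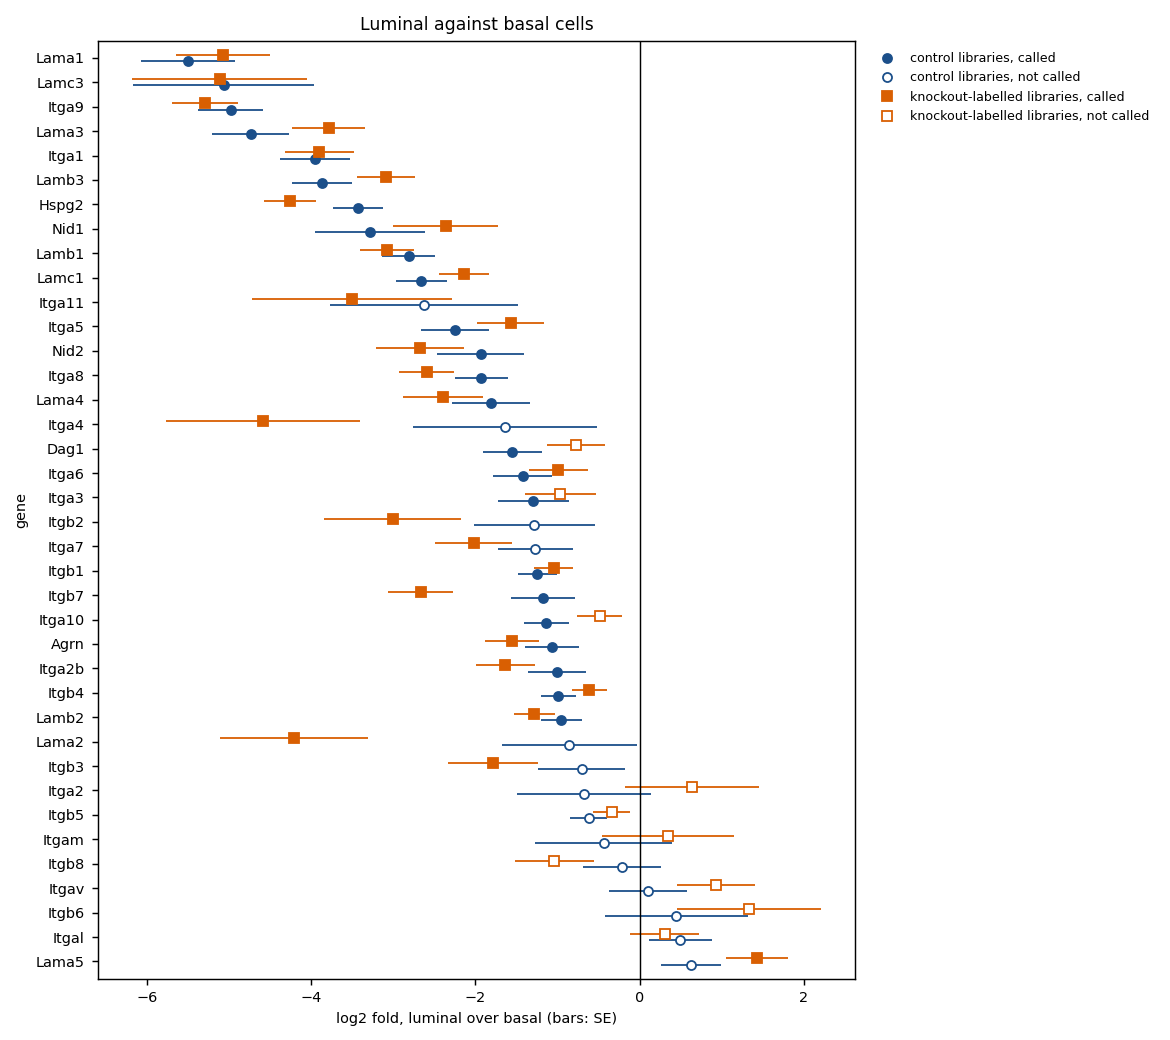
Fitted log2 folds, luminal over basal, of tested genes in control libraries (circles) and knockout-labelled libraries (squares). Bars are SE, and filled symbols are called at an adjusted p under 0.05. Most genes lie left of 0 in both, and Lama5 is called to the right of 0 in knockout-labelled libraries. The fold of Itga4 rests on 2 to 5 luminal counts a group.

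The same contrast in knockout-labelled libraries called 28 genes, 27 lower and 1 higher in luminal cells, where 40.6% of all genes were called, 21.4% lower and 19.2% higher. Of these 28, 21 were also among the 25 of the controls. Lama5 was the 1 higher gene (log2 fold 1.43, SE 0.37, adjusted p = 0.00996), at 60.2, 56.8 and 62.8 RPKM in basal and 128, 157 and 200 RPKM in luminal knockout-labelled libraries. Itga3, Itga10 and Dag1 were among the 4 called in controls alone, with log2 folds in knockout-labelled libraries of -0.97, -0.48 and -0.77. By edgeR over all libraries without the block, Lama2, Itga4, Itga7, Itga11, Itgb2 and Itgb3 were called lower in knockout-labelled libraries alone. Calls of some of them in controls by other fits are given above. Itga4 had 48 basal and 2 luminal counts there, beside 17 and 5 in controls, so it passed the expression filter through the group where it was high, and its call is given as a description. Markers of other cell types differed in the same contrast. Of 8 fibroblast markers 7 fell from basal to luminal in knockout-labelled libraries (median log2 fold -3.72) and 1 fell in controls (-0.88). Pericyte markers were lower for 6 of 7 (median -4.08) and 4 of 7 (-1.83), and markers of Schwann cells and nerve for 3 of 4 (-3.99) and 2 of 4 (-0.67). Endothelial markers were lower for 5 of 8 (median -1.99) and 0 of 8 (-0.50). Some markers of these lists were called higher in luminal cells. They were the pericyte marker Notch3 (log2 fold 2.05 in knockout-labelled and 2.31 in control libraries), the endothelial marker Vwf (2.20 and 1.35), and the fibroblast marker Dpp4 in controls (1.97). The part of these other cell types in the calls of Lama2, Itga4, Itga7, Itga11, Itgb2 and Itgb3 was not tested. No difference between the contrasts was called for any of these genes, as given with the interaction below.

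**Figure D4:**
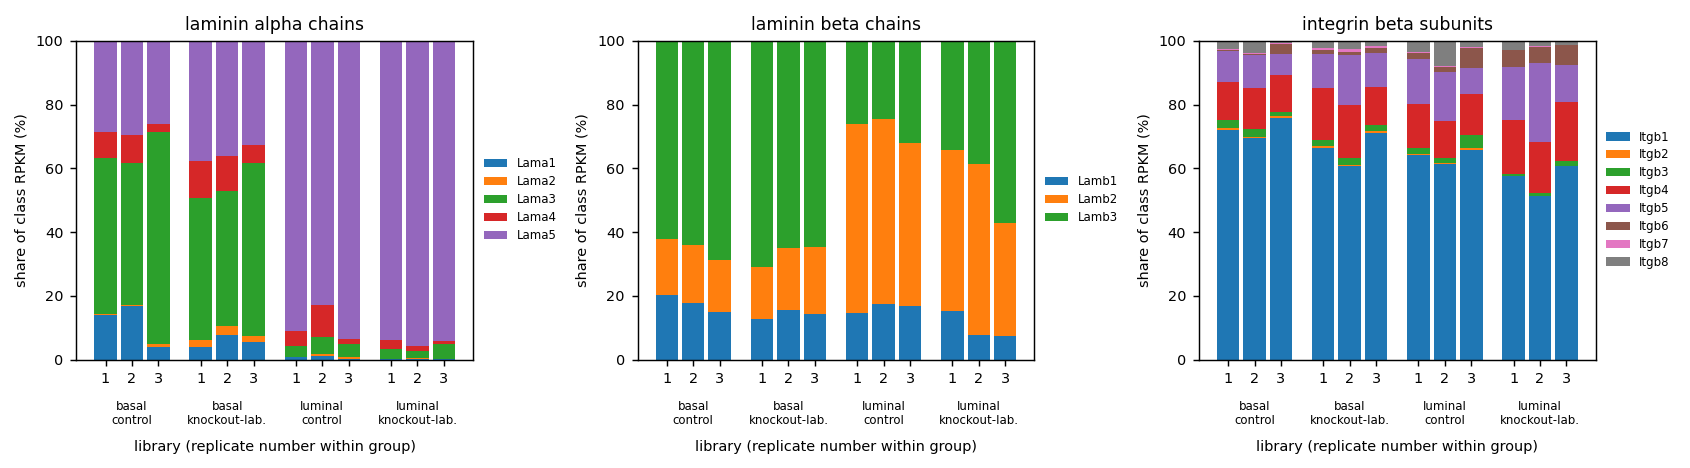
Share of each gene in the summed RPKM of its class, in percent, for laminin alpha and beta chains and integrin beta subunits. Each bar is 1 library, and bars are grouped by cell type and label. Lama5 makes up 82.9% to 93.4% of alpha chain transcripts in luminal controls and 26% to 29.5% in basal controls.

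The makeup of each class was described per library as the share of its summed RPKM. Lama3 held 44.5% to 66.5% of laminin alpha transcripts in basal controls, and Lama5 held 26% to 29.5%. In luminal controls Lama5 held 82.9% to 93.4% and Lama3 3.53% to 5.34%. Beta chains shifted from Lamb3 to Lamb2: Lamb3 held 62.2% to 68.8% in basal and 24.5% to 32.2% in luminal controls, while Lamb2 held 16.1% to 18.1% and 51.1% to 59.5%. Among integrin alpha subunits Itga6 held 37.1% to 40.3% in basal and 30.7% to 35.9% in luminal controls, and Itgav 10.2% to 12% and 22.2% to 30%. Itgb1 held 69.4% to 75.7% of integrin beta transcripts in basal and 61.4% to 65.7% in luminal controls. These shares carry no test.

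Lists of partner genes were read in the same fit. Of 21 collagen IV and other basement membrane genes 15 were lower and 2 higher in luminal controls, with Sparc (log2 fold -5.81), Col4a2 (-5.19), Frem2 (-4.99) and Fras1 (-4.88) lowest. The 2 higher genes, singled out after their values were seen, were Smoc1 (2.23, SE 0.44) and Npnt, which encodes nephronectin (2.09, SE 0.32). Of 4 hemidesmosome and tetraspanin genes 3 were lower: Col17a1, the transmembrane collagen of hemidesmosomes (-6.70, SE 0.58), Dst (-1.55) and Cd151 (-0.91), a tetraspanin that binds laminin receptors. Of 21 talin, kindlin and focal adhesion genes 11 were lower and 0 higher, among them Tns1 (-3.14), Fermt1 (-2.82), Lims2 (-2.02) and Actn1 (-1.62). Of 18 tested genes of the dystrophin complex and dystroglycan glycosylation 4 were lower: Sgcb (-1.79), Utrn (-1.72), Sntb2 (-1.0) and Pomt2 (-0.65). Among 10 other integrin ligands Vcam1 (-3.32) and Icam1 (-2.78) were lower, and the milk fat globule gene Mfge8 (1.46) and the osteopontin gene Spp1 (3.64) were higher.

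In basal cells none of the 39 genes was called between knockout-labelled and control libraries. The comparison asked how basal cells differ with the knockout label, and 0.671% of all genes were called by edgeR, 100 in number. At an unadjusted p under 0.05 there were 3 of 39 genes against 8.88% of all genes, and DESeq2 and limma-voom called 0 as well, against 1.93% and 0.939% of all genes. Groups did not overlap for 7 of 39 genes, 6 higher and 1 lower, against 12.4% of all genes, 8.15% higher and 4.21% lower. The median log2 fold of the 39 was -0.04, beside -0.01 over all genes.

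The 3 genes with the lowest p were Itgb7, Lama2 and Lama1. Itgb7, a beta subunit of lymphocyte integrins, was at 0.776, 1.64 and 1.35 RPKM in controls and 2.2, 3.62 and 2.93 RPKM in knockout-labelled libraries (log2 fold 1.21, SE 0.37, adjusted p = 0.21). Lama2 was at 0.278, 0.524 and 1.1 RPKM in controls and 3.14, 4.38 and 3.65 RPKM in knockout-labelled libraries (log2 fold 2.55, SE 0.82, adjusted p = 0.249). In both genes every knockout-labelled library lay above every control. Fibroblast markers moved beside Lama2: the 8 markers, none at 0 in any group, summed to 460 to 597 CPM in controls and 1722 to 2843 CPM in knockout-labelled libraries. Pdgfra (log2 fold 2.41) and Dpp4 (2.85) rose, 2 of 8 markers. Markers of Schwann cells and nerve summed to 28.2 to 39.4 and 47.8 to 77.4 CPM, and 1 of 4 tested rose. Of these sums Ngfr alone held 22.9 to 32.6 and 28.6 to 52.5 CPM, and Ngfr was much lower in luminal than in basal controls (log2 fold -5.43). The 8 luminal markers summed to 733 to 975 CPM in basal controls and 1061 to 1562 CPM in basal knockout-labelled libraries, with 0 called. The part of any of these cell types in the values of Lama2, Nid2 or Itgb7 was not tested.

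Lama1 depended on 1 library. It was at 29.5, 32.4 and 6.25 RPKM in basal controls and at 6.43, 12 and 10.3 RPKM in knockout-labelled libraries (log2 fold -1.25, SE 0.47, adjusted p = 0.39). Controls 1 and 2 lay above all knockout-labelled libraries, and control replicate 3 lay below them. Without that library Lama1 was lower (log2 fold -1.70, SE 0.26, adjusted p = 0.0149), and it was called as well without all 4 libraries numbered 3 (-1.73, adjusted p = 0.0233). That control was the library low in Acta2 and high in Krt5 and Krt14, and the part of this in the Lama1 value was not tested.

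The next genes by p were not called. Itgb5 was at 36.6, 36.2 and 26 RPKM in basal controls and 40, 56.3 and 41.5 RPKM in knockout-labelled libraries (log2 fold 0.48, SE 0.23, adjusted p = 0.598). Itga5 was at 48.3, 35.4 and 68.4 against 31.5, 20.6 and 44.1 RPKM (log2 fold -0.66, SE 0.40, adjusted p = 0.768). Nid2 was at 1.25, 2.34 and 1.36 against 2.78, 3.34 and 2.62 RPKM (log2 fold 0.82, SE 0.49, adjusted p = 0.781). Itgb5 and Nid2 groups did not overlap, and Itga5 was lower in the knockout-labelled library of each number. Itga4 and Itgal were at or under 0.278 RPKM in all basal libraries, with log2 folds of 1.53 (SE 0.89) and -0.85 (SE 0.41).

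Lama3, Lamb3 and the laminin receptors had small basal folds. Lama3 was at 71.3, 67.2 and 104 RPKM in basal knockout-labelled libraries (log2 fold against controls -0.26, SE 0.40) and Lamb3 at 216, 203 and 177 RPKM (0.17, SE 0.32). Itga6, Itga3, Itgb1 and Itgb4 had log2 folds of -0.27, 0.14, -0.13 and 0.28. The groups of these genes overlapped, except for Itgb4, whose 61.4, 58.4 and 47.8 RPKM in knockout-labelled libraries lay just above all controls. Among partner genes 1 rose in basal cells, Sgce, which encodes a sarcoglycan (log2 fold 2.38, SE 0.42, adjusted p = 0.0325). None of the hemidesmosome, basement membrane, focal adhesion or other ligand lists had a called gene.

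**Figure D5:**
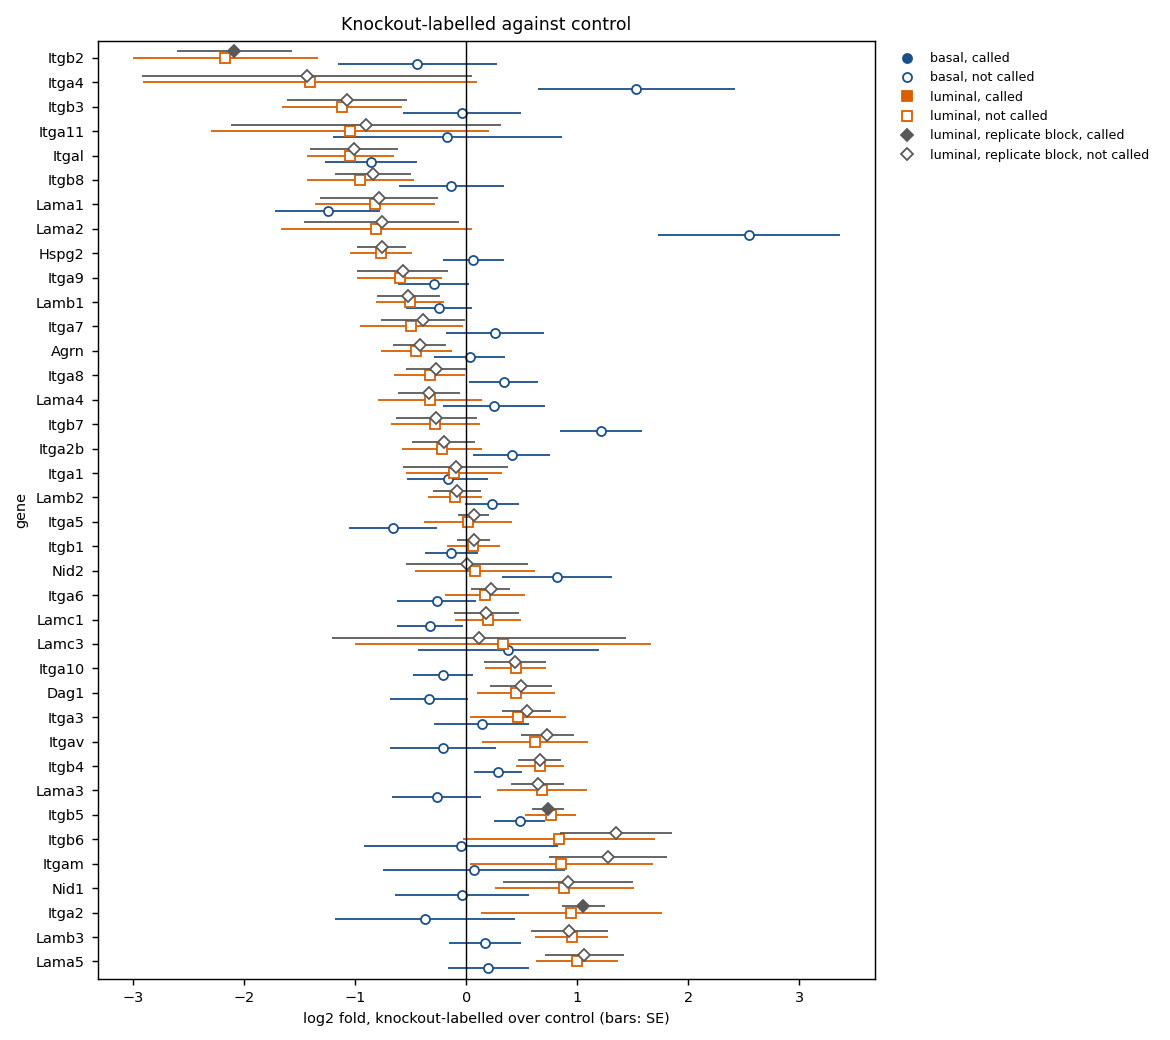
Fitted log2 folds, knockout-labelled over control, of tested genes in basal cells (circles), luminal cells (squares) and luminal cells with replicate number as a block (diamonds). Bars are SE, and filled symbols are called at an adjusted p under 0.05. Itga2 and Itgb5 are called to the right of 0 and Itgb2 to the left of 0 with the block, and no symbol is filled without it.

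In luminal cells none of the 39 genes was called without the replicate block, and 4 were called with it. The comparison asked how luminal cells differ with the knockout label, and 3.03% of all genes were called without the block and 7.36% with it. At an unadjusted p under 0.05 edgeR without the block had 8 of 39 genes against 17.2% of all genes, DESeq2 called 2 of 42, Itgb5 among them, against 5.08% of all genes, and limma-voom called 1 of 39 against 2.93%. Groups did not overlap for 11 of 39 genes, 6 higher and 5 lower, against 25.4% of all genes. The share of these genes that moved was thus near the background. Replicate numbers were taken to pair the luminal libraries. With them as a block 3 genes rose, Itgb5 and Itga2 among them, and Itgb2 fell, where 4.65% of all genes rose and 2.71% fell. The block fits each number with an effect shared by luminal and basal libraries. Numbers of basal libraries did not meet the rule for pairing given below, so these calls do not come from luminal pairs alone.

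Lamb3 and Lama3 had positive luminal folds and were not called in either fit. Lamb3 was at 12.4, 10.7 and 13.1 RPKM in luminal controls and 14.7, 17.8 and 37.5 RPKM in knockout-labelled libraries (log2 fold 0.95, SE 0.33, adjusted p = 0.156). Its groups did not overlap, and replicate 3 held the high value. Lama3 was at 2.76, 2.53 and 5.64 against 4, 3.67 and 9.86 RPKM (log2 fold 0.68, SE 0.41, adjusted p = 0.43). Itgb4, the beta subunit of their hemidesmosome receptor, was at 22.2, 18.1 and 29 against 32, 31 and 46.7 RPKM (log2 fold 0.66, SE 0.22, adjusted p = 0.133), again with no overlap. Col17a1, of the same junction, rose (adjusted p = 0.0466, log2 fold 2.0, SE 0.47) as the 1 called gene of 4 in its list. The Col17a1 call was kept in 9 of 21 alternatives. Vcam1, an integrin ligand, fell (log2 fold -2.26, SE 0.45, adjusted p = 0.0222).

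Basal markers were set beside these genes. Their 8 genes summed to 125 to 681 CPM in luminal controls and 310 to 738 CPM in luminal knockout-labelled libraries, ranges that overlap through control replicate 3. Trp63, the basal transcription factor p63, rose (log2 fold 2.80, SE 0.58, adjusted p = 0.0253), 1 of 8 markers. Krt14 was at 36.3 to 282 CPM in controls and 208 to 393 CPM in knockout-labelled libraries, while Acta2 was at 12.3 to 23.8 and 11.5 to 17.3 CPM. The part of basal cells in the values of Lamb3, Lama3 and Itgb4 was not tested.

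Lama5 (chromosome 2, 180176373 to 180225904 on GRCm38) was at 71.1, 39.3 and 132 RPKM in luminal controls and 128, 157 and 200 RPKM in knockout-labelled libraries. Its log2 fold was 1.0 (SE 0.37, adjusted p = 0.183), and control replicate 3 lay just above knockout-labelled replicate 1. Without that control Lama5 was higher (log2 fold 1.57, SE 0.32, adjusted p = 0.0271). Of the partners of Lama5 in laminin-511, Lamc1 was at 12, 12.8 and 15.1 RPKM in controls and 11.6, 16.8 and 17.3 RPKM in knockout-labelled libraries (log2 fold 0.19, SE 0.30). Lamb1 was at 6.93, 7.55 and 6.8 RPKM in controls and 6.49, 3.62 and 4.87 RPKM in knockout-labelled libraries (log2 fold -0.51, SE 0.31). Lama1 was at 0.551, 0.583 and 0.37 against 0.325, 0.301 and 0.231 RPKM (log2 fold -0.82, SE 0.54), with no overlap and no call.

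Itgb5 and Itga2 were the integrin genes that rose with the block. Itgb5, a beta partner of alphav that binds vitronectin, was at 22.4, 23.7 and 18.1 RPKM in luminal controls and 31.5, 48.2 and 29.2 RPKM in knockout-labelled libraries. Its groups did not overlap, and its log2 fold was 0.76 (SE 0.23, adjusted p = 0.106) without the block and 0.74 (SE 0.14, adjusted p = 0.0164) with it. Itga2 was at 5.3, 7.17 and 27.6 RPKM in controls and 12, 16.4 and 48.8 RPKM in knockout-labelled libraries. Here the groups overlapped because both replicates numbered 3 were high, while each knockout-labelled library was above the control of its number. The log2 fold was 0.95 (SE 0.82, adjusted p = 0.61) without the block and 1.05 (SE 0.19, adjusted p = 0.0133) with it, so over all libraries this call rests on the block. Itga2 was also called without the block when the 4 libraries numbered 3 were left out, an alternative chosen after seeing the data. Itgb6 and Itgav showed the same order within numbers, at 3.08, 2.37 and 14.4 against 9.89, 9.65 and 15.8 RPKM and at 41.6, 22.9 and 97.5 against 70.7, 52.3 and 126 RPKM. With the block their log2 folds were 1.35 (SE 0.50, adjusted p = 0.135) and 0.73 (SE 0.24, adjusted p = 0.0976), not called.

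The promoters of Itgb5 and Itga2 are shown because both genes rose with the block and are in the RefSeq promoter table (GRCm38.p6), which held 27 of the 42 genes. Each line is the 250 bases before the annotated start, 5′ to 3′ on the gene's strand, with capitals kept for matches to a forkhead motif, GTAAACA, or an AP-1 motif, TGANTCA, on either strand. The Itgb5 window is chr16:33829415-33829664 on the plus strand and the Itga2 window is chr13:114932101-114932350 on the minus strand.
Itgb5: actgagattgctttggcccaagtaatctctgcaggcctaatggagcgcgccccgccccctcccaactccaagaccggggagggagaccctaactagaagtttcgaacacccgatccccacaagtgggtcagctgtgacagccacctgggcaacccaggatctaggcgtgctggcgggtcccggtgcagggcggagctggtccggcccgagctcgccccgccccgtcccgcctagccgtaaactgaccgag
Itga2: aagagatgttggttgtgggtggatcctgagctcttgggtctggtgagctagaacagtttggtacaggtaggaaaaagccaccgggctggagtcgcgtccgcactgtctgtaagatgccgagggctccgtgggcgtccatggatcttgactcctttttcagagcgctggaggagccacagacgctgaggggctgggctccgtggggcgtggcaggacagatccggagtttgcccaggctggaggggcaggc
Neither window holds either set of letters. Over all 32851 windows of this length 3.17% hold the forkhead letters and 6.75% the AP-1 letters, and of the 32 windows of the 42 genes 0 and 1 do. The G and C content was 65.2% for Itgb5 and 60.8% for Itga2, beside a median of 52.4% over all windows.

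Linkers and low integrins completed the luminal comparison. Hspg2 was at 3.42, 4.41 and 3.71 RPKM in luminal controls and 2.12, 2.47 and 2.18 RPKM in knockout-labelled libraries, with no overlap (log2 fold -0.77, SE 0.28, adjusted p = 0.183). Agrn was at 36.8, 36.2 and 30.3 RPKM in knockout-labelled libraries (log2 fold -0.45, SE 0.32), and Dag1 at 66.4, 69.3 and 70.9 RPKM, above all luminal controls (log2 fold 0.45, SE 0.35). Nid1 was at 1.3, 5.33 and 4.26 RPKM (0.89, SE 0.63) and Nid2 at 0.898, 0.257 and 0.232 RPKM (0.08, SE 0.54). Itgb2, the beta subunit of leukocyte integrins, was at 0.36, 0.355 and 1.79 RPKM in controls and 0.279, 0.0313 and 0.233 RPKM in knockout-labelled libraries. Its log2 fold was -2.17 (SE 0.83, adjusted p = 0.202) without the block and -2.09 (SE 0.52, adjusted p = 0.0423) with it. The 9 leukocyte and macrophage markers summed to 13.5 to 29.6 CPM in luminal controls and 13.6 to 29.5 CPM in knockout-labelled libraries, and none of the 4 tested was called. Among them Csf1r had a log2 fold of 2.16, Cd68 of 0.01, Coro1a of -1.57 and Lyz2 of -2.78, and Ptprc, too low to test, was highest in control replicate 3 like Itgb2. Their part in that call was not tested. Itgal was at 0.34, 0.177 and 0.366 against 0.115, 0.154 and 0.153 RPKM (log2 fold -1.04, SE 0.39, adjusted p = 0.19).

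Of the laminin receptors in luminal cells, Itgb1, Itga6 and Itga3 had small folds. Itgb4 and Dag1, given above and not called, were higher in every knockout-labelled library than in any control. Itgb1 was at 109, 99.9 and 153 RPKM in luminal knockout-labelled libraries (log2 fold against controls 0.07, SE 0.24), Itga6 at 61.1, 57 and 103 RPKM (0.17, SE 0.36) and Itga3 at 42.4, 44.4 and 87.6 RPKM (0.47, SE 0.43). Their groups overlapped. In shares of class, Lamb3 held 34.2% to 57.3% of beta chain transcripts in luminal knockout-labelled libraries and Lama5 held 93.9% to 95.6% of alpha chain transcripts. Both ranges lay above those of luminal controls.

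The difference between the luminal and the basal genotype effect was called for 0 of 39 genes by edgeR, where 0.275% of all genes were called. DESeq2, limma-voom and the replicate block called 0 as well, and 3 genes had an unadjusted p under 0.05, against 9.84% of all genes. Lama2 had a luminal effect below its basal effect, at -3.35 (SE 1.18, adjusted p = 0.323), and so did Itgb7, at -1.49 (SE 0.55, adjusted p = 0.358). No gene had groups that did not overlap in opposite directions in the 2 cell types. For none of the 39 genes was the genotype effect therefore shown to differ between basal and luminal cells.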

How the data were processed

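RNA was sequenced from 12 libraries, 4 groups of 3 biological replicates per the series' design text; whether a replicate is 1 mouse is not stated, so p-values measure the spread between these libraries. The deposited values are whole-number read counts per Entrez gene, not normalized by the authors. Per the submitters' processing notes, CASAVA 1.8.2, featureCounts and mm10 were used. No aligner, annotation or strand setting is given in those notes or in the labels. The table also gives each gene's length. The per-library tables held the same counts, with 0 differences. Exons of 14 of the 42 genes, Itgb4, Lama2, Lama3, Itgav, Itga8 and Nid1 among them, overlap another gene in GENCODE M21, so some reads may be shared or lost.

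The test on counts was that of edgeR 4.0.16 under R 4.3.3 (quasi-likelihood F test, robust, TMM factors, default filter by group) over all 12 libraries, with Benjamini-Hochberg adjustment over 14903 genes. Each SE was taken as log2 fold over root F. The 8 residual degrees of freedom and a biological coefficient of variation of 32.6% limit precision. The edgeR fit without the block was tested on simulated data, for the genotype comparisons in basal and in luminal cells only. The replicate block and the other tools were not tested in this way. CPM and RPKM were computed from the counts, TMM factors and lengths. Alternatives were other scalings, filters, DESeq2 1.42.0, limma-voom 3.58.1, fewer libraries, the replicate block, and leaving out libraries. The block gave each number an effect shared by all 12 libraries. Numbers were taken to pair libraries where deviations from the group means of same-numbered libraries correlate above 0.1 in every pair. Luminal genotype (0.356, 0.301, 0.535) and control cell types (0.308, 0.425, 0.473) met this rule. The basal pairs (-0.0867, 0.358, 0.13) and knockout-labelled cell types (0.0868, 0.416, 0.42) did not meet it. Some differently numbered libraries also exceeded 0.1: 0.19 in luminal genotype, 0.111 and 0.117 in control cell types, and 0.144 and 0.222 in basal genotype. The rule alone therefore does not set pairs apart from other libraries. Replicates differed beyond sampling noise, with a chi-square per degree of freedom of at least 12.2.

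Members and lists were chosen with earlier results of these data known. Values per library are given for the 8 genes of lowest p in each genotype comparison, laminin chains and receptors, the linkers, and the 6 largest folds between control cell types. Up to 4 called genes per partner list are named. Some genes chosen by these rules are not reported here.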

Additional observations from a re-analysis of the deposited data

How the results depend on the processing

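Directions were stable for every gene called between control cell types: none changed sign in 21 alternatives. The count of 25 genes lower in luminal controls was 21 to 28 without single libraries and 22 with the libraries of those groups alone. Calls lost in some alternatives were Itga2b (kept in 9 of 21), Itgb7 (14), Itga3 (15), Agrn (16) and Nid2 (19). The 28 genes of the knockout-labelled contrast became 23 to 30 without single libraries, and 34 with the replicate block, whose numbers did not meet the rule for pairing those libraries. With the block calls over all genes grew too, in the control contrast from 33.2% to 43.8%. The count of 34 is therefore not read as a result about these genes. In basal cells the count of 0 between genotypes became 1 with the replicate block (Itga5, log2 fold -0.68, adjusted p = 0.0439), where the numbers did not meet the rule for pairing, and 0 to 1 without single libraries. In luminal cells the count of 0 became 4 with the replicate block, 2 with DESeq2, 1 with limma-voom and 1 with scaling by library size. It was 0 to 2 without single libraries: 2 genes, Lama5 among them, were called without luminal control replicate 3, and Hspg2 was lower without basal control replicate 3 (adjusted p = 0.042). Leaving out the 4 libraries numbered 3, an alternative chosen after seeing the data, gave 1 basal gene (Lama1) and 4 luminal genes (Lama5, Itga2 and Itgb6 among them). For fits that leave out libraries or change the scaling, the share of all genes called is not given here. Counts from those fits are therefore descriptions and are not read as results about these genes. The genotype interaction count was 0 in all alternatives. Calls of partner and marker genes between genotypes were also lost in some alternatives: Col17a1 was kept in 9 of 21, Sgce in 13, Vcam1 in 15 and Pdgfra in 17. Over all genes edgeR called 100 in basal and 451 in luminal cells between genotypes, beside 414 and 1092 with DESeq2 and 236 and 1097 with the replicate block. The interaction gave 41 calls over all genes, beside 360 with DESeq2 and 106 with the replicate block; it was not run with fewer groups, since it uses all 4.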

Other observations

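Partner genes were also read between luminal and basal cells of knockout-labelled libraries, where 16 of 21 collagen IV and other basement membrane genes fell from basal to luminal and 1 rose, Smoc1 (log2 fold 2.64, SE 0.47). Sparc, Col4a2, Col18a1 and Fbln2 had the largest folds, at -6.30, -5.55, -5.23 and -5.14. Other integrin ligands were lower for 6 of 10, among them Vcam1 (-5.69), Vtn, the vitronectin gene (-4.30), Fn1, the fibronectin gene (-4.16), and Icam1 (-2.77), and higher for Spp1 (3.05, SE 0.98). Fn1 and Vtn had basal log2 folds of 2.34 (SE 0.69) and 1.81 (SE 0.58) between genotypes, not called, in the libraries where fibroblast markers summed highest.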
